A study of Rattus norvegicus with 22 samples.

Results

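The genes described here encode 9 chaperones of the HSP70, HSP110, HSP90 and HSP60 families. They were taken as the non-control probes whose accession the RefSeq gene table of rat assembly GRCr8 maps to Hspa2, Hspa1l, Hspa4l, Hspa8, Hspa12a, Hsp90aa1, Hsp90ab1, Hsph1 or Hspd1. All 9 genes were found, through 16 probes, among the 15154 named genes and 30367 probes of the array. Hspa8 had 4 probes, Hsp90aa1 had 3, Hsp90ab1 and Hspa12a had 2 each, and the other 5 genes had 1. Each gene was followed by its probe with the highest mean.

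RNA came from germ cells of male rats that received cyclophosphamide, an alkylating anticancer drug, by gavage at 6 mg/kg, or saline, on 6 days of each week for 4 weeks. The fractions were separated by unit gravity sedimentation in a STA-PUT chamber. The 22 arrays, each hybridised with RNA in 1 colour, were of 4 groups: round spermatids of cyclophosphamide rats (n = 6) and of saline rats (n = 6), and pachytene spermatocytes of cyclophosphamide rats (n = 5) and of saline rats (n = 5). A pair of the cyclophosphamide pachytene arrays carries the same rat number, 16, with different years, and the labels do not say whether they are 1 animal; leaving out either changed no member's call. The labels used here give no strain or age, so the groups differ, as far as they say, only in cell type and in what was gavaged. The arrays also differed in slide: slides 1 and 2 held both cell types, and slides 3 and 4 held pachytene arrays alone. Cell type was thus partly tied to slide.

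Chaperones of the HSP70 class bind unfolded stretches of proteins in a cycle driven by ATP, with J-domain proteins that deliver the substrate and exchange factors, the HSP110 class among them, that release the nucleotide. HSP90 takes over many partly folded clients together with its own co-chaperones, and HSP60 forms a folding chamber in mitochondria. Male germ cells make forms of their own: HSPA2 is needed to complete meiosis in male mice, HSPA1L is made in spermatids, and HSPA4L is an HSP110 protein that is abundant in the testis. HSPA8 and HSP90AB1 are the forms that most cells make without stress.

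Array brightness differed, with a 75th percentile of 1069 to 2423 in processed signal and 65.3% to 76.4% of probes called above background, and saturation affected 0 spots. All 10 round spermatid markers were higher in round spermatids than in pachytene spermatocytes of saline rats, and 9 of 10 pachytene markers were lower. The summed signal of the pachytene markers, in multiples of each array's 75th percentile, was 21.7 to 28.3 in round spermatids of cyclophosphamide rats and 23.4 to 29.9 in those of saline rats. It was 74.1 to 87.5 in pachytene spermatocytes of cyclophosphamide rats and 65.7 to 78.2 in those of saline rats. Markers of other testis cells were also above background in the fractions. The 9 Sertoli markers with a probe, out of 10 listed, summed to 1.71 to 5.76 in all round spermatid arrays. In all pachytene arrays they summed to 19.0 to 33.5. Dhh was above background in none of the round spermatid arrays. In saline rats 7 of the 9 were lower in round spermatids. Wt1 went the other way, with a log2 difference of 1.12, and Amh was at 0.03. The 8 macrophage and leukocyte markers summed to 3.79 to 11.49 in round spermatids and 0.49 to 1.25 in pachytene spermatocytes, where Ptprc was above background on no array. The 6 Leydig markers summed to 1.71 to 4.19 in round spermatids and 5.17 to 11.4 in pachytene spermatocytes, with Lhcgr below background throughout. The 5 myoid markers summed to 3.20 to 5.78 in round spermatids and 1.101 to 2.19 in pachytene spermatocytes, where Cnn1 was below background. The part of these cells in the differences given here was not tested. In such bulk fractions, fewer cells of a type and less RNA per cell cannot be told apart.

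Because heat shock genes are known for heat shock elements near their starts, the promoters of the testis forms Hspa2, Hspa1l and Hspa4l are shown beside those of the general forms Hspa8, Hsph1 and Hspd1. RefSeq's GRCr8 promoter table held 7 of the 9 genes and each window runs from 250 bases before the start to 50 after it, read 5′ to 3′ on the gene's own strand. The windows lie at chr6:100864192-100864491 (plus strand, Hspa2), chr20:3860174-3860473 (minus strand, Hspa1l), chr2:125668096-125668395 (plus strand, Hspa4l), chr8:50080264-50080563 (plus strand, Hspa8), chr12:10427118-10427417 (plus strand, Hsph1) and chr9:64083988-64084287 (minus strand, Hspd1). Capitals mark matches to a heat shock element.
Hspa2: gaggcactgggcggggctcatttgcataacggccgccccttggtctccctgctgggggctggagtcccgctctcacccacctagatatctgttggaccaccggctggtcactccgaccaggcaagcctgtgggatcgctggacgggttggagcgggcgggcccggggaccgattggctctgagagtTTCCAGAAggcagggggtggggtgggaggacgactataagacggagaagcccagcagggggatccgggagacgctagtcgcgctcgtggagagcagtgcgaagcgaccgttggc
Hspa1l: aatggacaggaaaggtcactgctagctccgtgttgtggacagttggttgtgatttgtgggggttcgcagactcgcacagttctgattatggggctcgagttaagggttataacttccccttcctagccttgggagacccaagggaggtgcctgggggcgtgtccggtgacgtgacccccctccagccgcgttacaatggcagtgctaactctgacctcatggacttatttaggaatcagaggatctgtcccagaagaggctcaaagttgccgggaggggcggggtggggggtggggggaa
Hspa4l: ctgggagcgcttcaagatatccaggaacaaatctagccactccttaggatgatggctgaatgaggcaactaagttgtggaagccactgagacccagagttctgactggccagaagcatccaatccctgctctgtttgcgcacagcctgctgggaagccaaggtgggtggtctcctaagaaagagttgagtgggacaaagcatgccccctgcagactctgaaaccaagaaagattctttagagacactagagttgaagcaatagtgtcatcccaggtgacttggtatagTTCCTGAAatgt
Hspa8: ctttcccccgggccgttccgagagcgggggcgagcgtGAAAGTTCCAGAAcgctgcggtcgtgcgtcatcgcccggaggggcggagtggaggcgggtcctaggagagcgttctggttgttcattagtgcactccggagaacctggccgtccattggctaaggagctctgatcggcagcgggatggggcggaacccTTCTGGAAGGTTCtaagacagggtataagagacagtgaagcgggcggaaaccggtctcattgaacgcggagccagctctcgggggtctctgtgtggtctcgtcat
Hsph1: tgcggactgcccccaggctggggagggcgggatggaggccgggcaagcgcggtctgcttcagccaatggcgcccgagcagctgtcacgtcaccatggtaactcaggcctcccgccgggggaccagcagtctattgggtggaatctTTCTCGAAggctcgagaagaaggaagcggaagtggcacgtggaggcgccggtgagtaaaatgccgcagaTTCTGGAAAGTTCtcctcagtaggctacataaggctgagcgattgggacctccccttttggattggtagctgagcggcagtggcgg
Hspd1: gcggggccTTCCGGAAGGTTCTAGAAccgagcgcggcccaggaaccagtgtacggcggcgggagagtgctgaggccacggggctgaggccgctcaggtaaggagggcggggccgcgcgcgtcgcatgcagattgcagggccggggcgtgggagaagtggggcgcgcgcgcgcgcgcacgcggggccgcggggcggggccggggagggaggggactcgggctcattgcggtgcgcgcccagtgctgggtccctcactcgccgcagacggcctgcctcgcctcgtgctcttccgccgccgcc

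The element was searched as a 2-unit core, GAANNTTC or TTCNNGAA, and as a 3-unit element, GAANNTTCNNGAA or TTCNNGAANNTTC, which covers both strands; each 3-unit match contains 2 cores. The 3-unit element was present in Hspa8, at 213 and 55 bases before the start, in Hsph1 at 36 bases, and in Hspd1 as a pair of overlapping matches from 242 bases. It was present in 0.8% of 33469 promoters of the same length. Hspa2 held a single core at 64 bases before the start, and Hspa4l held one only after its start, while 15.85% of all promoters held a core. The Hspa1l window held neither form. It held a short form of the cAMP response element, TGACG or its complement CGTCA, at 84 bases, which 21.2% of promoters share and which Hspa8, Hsph1 and Hsp90ab1 held too. The Hsp90ab1 window, not printed, held no heat shock element but the full cAMP response element TGACGTCA at 180 bases, found in 1.83% of promoters. The TATA box was searched only as the exact string TATAAA or its complement TTTATA, which was in none of the 7 windows and in 14.22% of all. Looser forms were not searched, and the printed Hspa2 and Hspa8 windows each hold TATAAG, so a TATA-like box is not excluded. Positions count from the start used for each window, which for Hspa2, Hspd1 and Hsp90ab1 lies inside the gene as annotated. The annotated spans are chr6:100864172-100866946 for Hspa2 and chr9:64073610-64084332 for Hspd1. The heat shock elements of Hspa2 and Hspd1 given here thus fall within the annotated genes. A match is a run of letters, and binding was not measured.

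The first comparison asked how the members differ between round spermatids and pachytene spermatocytes, once in each treatment. Hspa1l was the member with higher signal in round spermatids, by about an order of magnitude, while Hspa4l, Hsp90aa1, Hsp90ab1 and Hsph1 were lower there in both treatments. In cyclophosphamide rats 1 of 9 tested members was higher and 7 were lower at an adjusted p of 0.05 (limma, Benjamini-Hochberg over all tested probes), where 38.6% of 21671 tested probes were higher and 40.9% lower. In saline rats 1 of 8 was higher and 5 were lower, where 38.0% of 21758 tested probes were higher and 37.6% lower. The cell types thus differed across most of the array, and a call alone sets no member apart. Levels below are log2 processed signal minus the log2 of that array's 75th percentile, so 0 is a signal at that percentile. To be tested, a probe had to be above background in a whole group of the contrast, with 1 array allowed to fail. Levels of different genes are not comparable, because each probe has its own response.

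**Figure D1:**
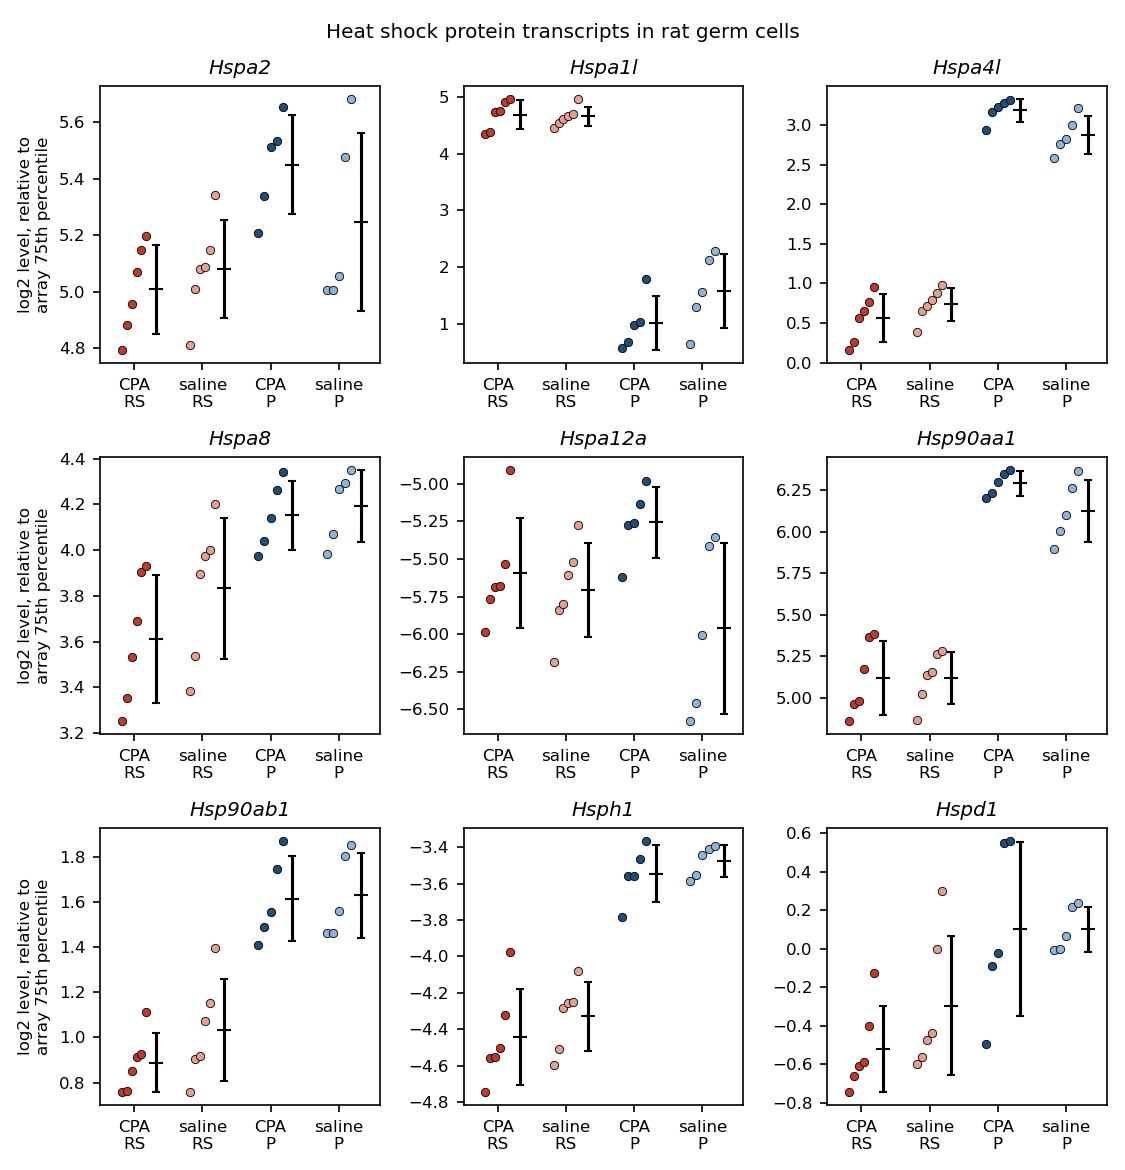
Log2 level of each of the 9 genes on 22 arrays, relative to the array's 75th percentile; points are arrays sorted by value within a group, bars are mean and SD, and each panel has its own scale (CPA, cyclophosphamide; RS, round spermatids; P, pachytene spermatocytes). Hspa1l lies above 4.3 in all round spermatid arrays and below 2.3 in all pachytene arrays, and Hspa4l lies on the opposite sides of a gap between 0.98 and 2.58.

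Hspa1l, the HSP70 form made in spermatids, lies on chromosome 20 beside the inducible Hspa1a, for which no probe was matched. Its level in round spermatids was 4.35 to 4.97 with a median of 4.75 in cyclophosphamide rats, and 4.46 to 4.96 with a median of 4.64 in saline rats. In pachytene spermatocytes it was 0.99, 1.80, 0.67, 0.58 and 1.03 in cyclophosphamide rats and 2.28, 2.13, 1.55, 0.64 and 1.29 in saline rats. The groups did not overlap in either treatment, and the pachytene arrays were far more scattered than the spermatid arrays. The log2 difference was 3.68 ± 0.24 (SE; 12.8-fold higher, 95% interval 9.06 to 18.1; limma adjusted p = 3.77e-12) in cyclophosphamide rats. It was 3.08 ± 0.24 (8.46-fold higher, 95% interval 5.99 to 11.9; adjusted p = 1.11e-10) in saline rats. Within slides 1 and 2, which held both cell types, it was 2.89 and 3.66 in cyclophosphamide rats and 2.28 and 3.21 in saline rats. Each of these slides held 1 pachytene array per treatment, so every within-slide test given here assumes that this array varies like the other groups.

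The scatter of Hspa1l among pachytene arrays went with the round spermatid markers. The summed signal of the 10 markers was 212, 303.9, 162, 145.5 and 207.6 in pachytene spermatocytes of cyclophosphamide rats, in the order in which Hspa1l is given above. It was 396.2, 319.5, 256.4, 156.3 and 226.7 in those of saline rats, in the same order. The saline arrays with the highest Hspa1l levels, 2.28 and 2.13, had the highest marker sums, and the lowest level, 0.64, had the lowest sum. In cyclophosphamide rats the highest and the lowest Hspa1l levels likewise fell on the arrays with the highest and the lowest sums. In round spermatids the sums were 532 to 908 in cyclophosphamide rats and 519 to 840 in saline rats. The part of spermatids within the pachytene fractions in the Hspa1l signal was not tested.

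**Figure D2:**
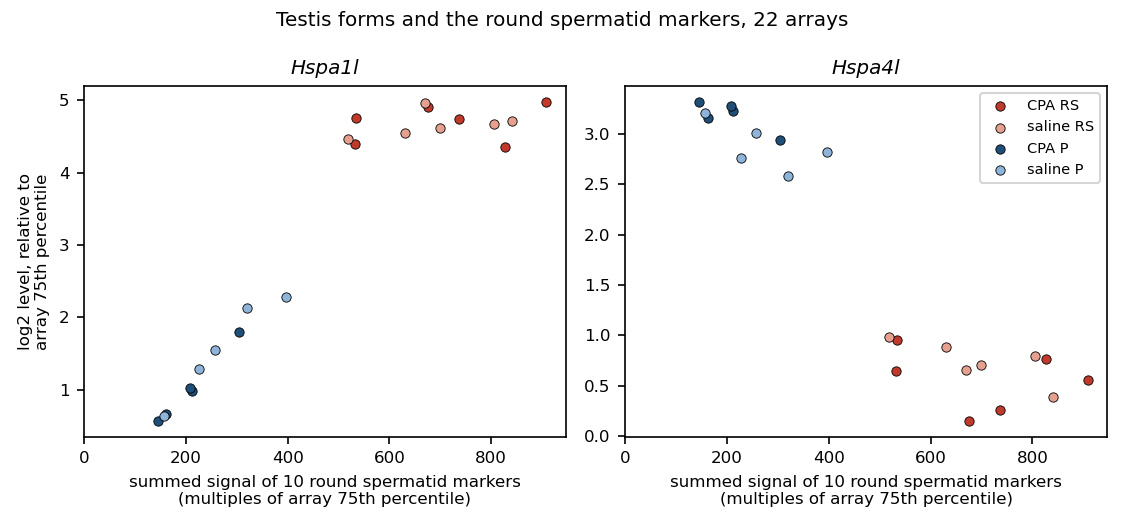
Log2 level of Hspa1l (left) and Hspa4l (right) on 22 arrays against the summed signal of 10 round spermatid markers in multiples of the array's 75th percentile; each point is an array. Among the 10 pachytene arrays Hspa1l goes from 0.58 at the lowest sum, 145.5, to 2.28 at the highest, 396.2, while the 12 round spermatid arrays show no such slope.

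Hspa2, the HSP70 form needed in meiosis, was above background on all 22 arrays. Its level in round spermatids was 4.79 to 5.20 with a median of 5.01 in cyclophosphamide rats, and 4.81 to 5.34 with a median of 5.08 in saline rats. The pachytene values were 5.51, 5.34, 5.21, 5.65 and 5.54 in cyclophosphamide rats and 5.48, 5.01, 5.05, 5.68 and 5.01 in saline rats. The saline pachytene arrays fell into 3 values inside the spermatid range and 2 above it. Hspa2 was lower in round spermatids of cyclophosphamide rats, where the groups did not overlap, by a log2 difference of -0.44 ± 0.13 (1.36-fold; limma adjusted p = 0.00447). In saline rats the difference of -0.17 ± 0.13 did not pass (adjusted p = 0.264; 95% interval -0.44 to 0.11). These contrasts differed from each other by -0.28 ± 0.19, which did not pass either (adjusted p = 0.679). The within-slide values were -0.20 on slide 1, where the cyclophosphamide call ended, and -0.66 on slide 2, and in saline rats -0.33 and -0.04.

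Hspa4l, the HSP110 form of the testis, moved opposite to Hspa1l. In round spermatids it was at 0.15 to 0.95 with a median of 0.60 in cyclophosphamide rats, and at 0.39 to 0.98 with a median of 0.75 in saline rats. Pachytene arrays gave 3.22, 2.94, 3.16, 3.32 and 3.28 in cyclophosphamide rats and 2.82, 2.58, 3.004, 3.21 and 2.76 in saline rats. The groups did not overlap in either treatment. Hspa4l was 6.18-fold lower in round spermatids of cyclophosphamide rats (log2 difference -2.63 ± 0.15; limma adjusted p = 3.39e-13) and 4.41-fold lower in those of saline rats (-2.14 ± 0.14; adjusted p = 1.47e-11). On slide 1 and slide 2 separately the differences were -2.41 and -2.70 in cyclophosphamide rats and -1.94 and -2.42 in saline rats.

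Hsph1, the HSP110 form of most tissues, taken here as the general counterpart of Hspa4l, was lower in round spermatids as well but by less. Its level in round spermatids was -4.75 to -3.98 with a median of -4.53 in cyclophosphamide rats, and -4.60 to -4.08 with a median of -4.27 in saline rats. On pachytene arrays it was -3.56, -3.78, -3.56, -3.47 and -3.36 in cyclophosphamide rats and -3.59, -3.41, -3.39, -3.55 and -3.44 in saline rats. Again the groups did not overlap in either treatment. The log2 difference was -0.90 ± 0.12 (1.86-fold lower; limma adjusted p = 7.29e-07) in cyclophosphamide rats and -0.85 ± 0.12 (1.80-fold lower; adjusted p = 1.84e-06) in saline rats. Within slides 1 and 2 it was -0.82 and -0.92 in cyclophosphamide rats and -0.79 and -0.89 in saline rats.

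Hsp90aa1, the HSP90 form that male mice need for meiosis, was the member with the least spread in pachytene spermatocytes of cyclophosphamide rats. It was at 4.86 to 5.38 with a median of 5.08 in round spermatids of cyclophosphamide rats, and at 4.87 to 5.28 with a median of 5.15 in those of saline rats. The pachytene levels were 6.35, 6.20, 6.23, 6.30 and 6.37 in cyclophosphamide rats and 6.26, 5.90, 6.01, 6.36 and 6.10 in saline rats. No spermatid array reached a pachytene array. Hsp90aa1 was 2.25-fold lower in round spermatids of cyclophosphamide rats (log2 difference -1.17 ± 0.12; limma adjusted p = 3.59e-09) and 2.01-fold lower in those of saline rats (-1.004 ± 0.12; adjusted p = 5.16e-08). Its other probes gave -1.07 and -1.41 in cyclophosphamide rats and -0.79 and -1.13 in saline rats, and all passed. On slide 1 and slide 2 separately the differences were -0.89 and -1.44 in cyclophosphamide rats and -1.03 and -0.997 in saline rats.

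Hsp90ab1, the constitutive HSP90, was lower in round spermatids by a smaller margin. Its level in round spermatids was 0.76 to 1.11 with a median of 0.88 in cyclophosphamide rats, and 0.76 to 1.40 with a median of 0.99 in saline rats. Pachytene spermatocytes had levels of 1.41, 1.87, 1.56, 1.49 and 1.75 in cyclophosphamide rats and 1.56, 1.80, 1.85, 1.46 and 1.46 in saline rats. The groups did not overlap, although in saline rats the highest spermatid array, at 1.40, lay just under the lowest pachytene arrays. The log2 difference was -0.73 ± 0.12 (1.65-fold lower; limma adjusted p = 1.06e-05) in cyclophosphamide rats and -0.60 ± 0.12 (1.51-fold lower; adjusted p = 1.32e-04) in saline rats. The second probe gave -0.79 and -0.57, and both passed. Within slides 1 and 2 the difference was -0.94 and -0.91 in cyclophosphamide rats and -0.43 and -0.92 in saline rats, where the call ended on slide 1.

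Hspa8, the constitutive HSP70, differed little between the cell types. Its level in round spermatids was 3.25 to 3.93 with a median of 3.61 in cyclophosphamide rats, and 3.39 to 4.20 with a median of 3.93 in saline rats. Its pachytene levels were 4.26, 4.14, 4.34, 3.97 and 4.04 in cyclophosphamide rats and 3.98, 4.35, 4.29, 4.27 and 4.07 in saline rats. The saline groups overlapped and the cyclophosphamide groups did not. Hspa8 was lower in round spermatids of cyclophosphamide rats by a log2 difference of -0.54 ± 0.15 (1.45-fold; limma adjusted p = 0.00222), and its other 3 probes gave -0.38 to -0.44 and passed. In saline rats the difference was -0.36 ± 0.15 (1.28-fold; adjusted p = 0.0327), while the other 3 probes gave -0.22 to -0.27 and did not pass. On slide 1 and slide 2 separately it was -0.43 and -0.53 in cyclophosphamide rats and -0.16 and -0.46 in saline rats, and none of these 4 passed. The saline call also ended without any one of 5 arrays, pachytene rats 16, 25 and 26 and spermatid rats 15 and 28, at -0.27 to -0.34.

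Hspd1, the HSP60 chaperonin of mitochondria, varied widely among pachytene arrays of cyclophosphamide rats. Its level in round spermatids was -0.74 to -0.13 with a median of -0.60 in cyclophosphamide rats, and -0.60 to 0.30 with a median of -0.45 in saline rats. In pachytene cells it was -0.09, 0.55, 0.56, -0.49 and -0.02 in cyclophosphamide rats and 0.07, 0.00, 0.24, 0.00 and 0.22 in saline rats. The groups overlapped in both treatments. Hspd1 was lower in round spermatids of cyclophosphamide rats by a log2 difference of -0.62 ± 0.19 (1.54-fold; limma adjusted p = 0.00402). In saline rats the difference of -0.40 ± 0.19 did not pass (adjusted p = 0.0572), and it passed without spermatid rat 16 (-0.46; adjusted p = 0.038) or rat 17 (-0.52; adjusted p = 0.0118). Within slides 1 and 2 it was -1.13 and -0.45 in cyclophosphamide rats, where the call ended on slide 2, and -0.31 and -0.58 in saline rats.

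Hspa12a, a distant relative of the HSP70 family, lay at the edge of detection. Its brighter probe was well above background on 3 of 6 and 3 of 6 round spermatid arrays, of cyclophosphamide and of saline rats, and on 4 of 5 and 2 of 5 pachytene arrays. Its other probe was above background on none of the 22. The level of the brighter probe was -5.98 to -4.91 with a median of -5.68 in round spermatids of cyclophosphamide rats, and -6.19 to -5.27 with a median of -5.70 in those of saline rats. The faintest signal called well above background was -6.94 to -5.47 on the different arrays. Only the pachytene arrays of cyclophosphamide rats brought it past the filter on dim probes, so its differences are given as values near the floor and no call is read from them. Its log2 difference between cell types in cyclophosphamide rats was -0.34, and -0.83 to -0.10 over the alternatives, the lowest within slide 1 and the highest within slide 2.

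**Figure D3:**
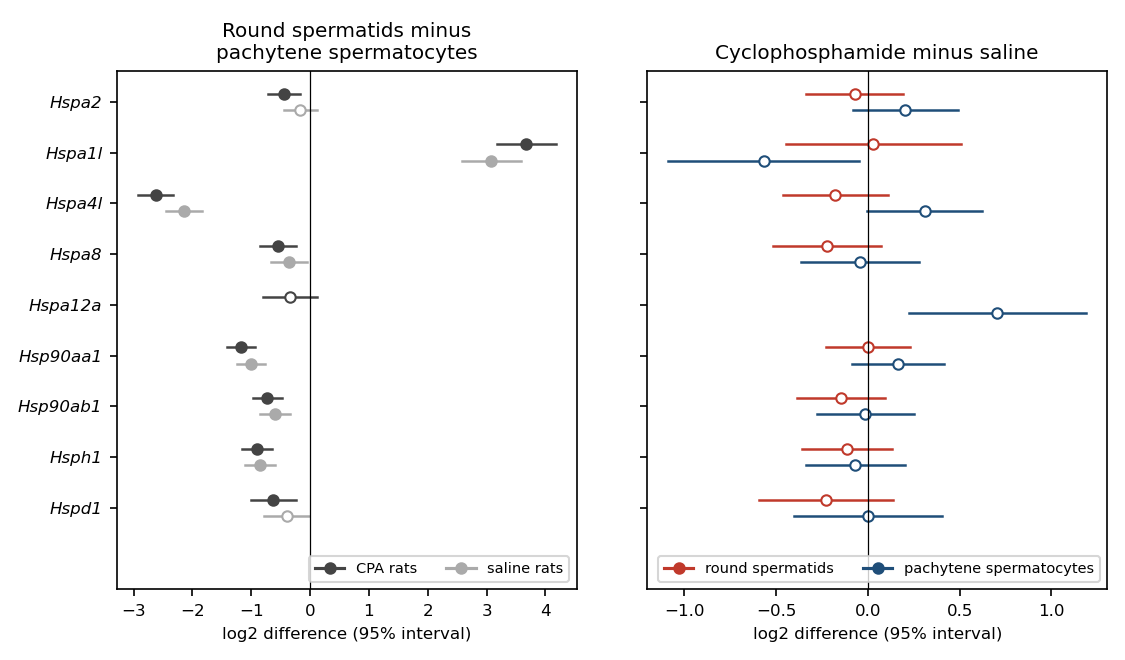
Log2 differences of the 9 genes with 95% intervals from limma: round spermatids minus pachytene spermatocytes (left; cyclophosphamide, CPA, above saline) and cyclophosphamide minus saline (right; round spermatids above pachytene spermatocytes). Filled points passed an adjusted p of 0.05 and open points did not, and untested values are left out; Hspa1l at 3.68 and 3.08 is the only member above 0 on the left, and no point on the right is filled.

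The testis forms and Hsp90aa1 were each set against a general counterpart, without the scaling of the array. The difference between both probes was taken on each array. It was compared between groups by exact two-sided permutation tests, with p adjusted over 16 tests. The Hspa1l minus Hspa8 difference was 1.08 ± 0.28 in round spermatids and -3.14 ± 0.50 in pachytene spermatocytes of cyclophosphamide rats (SD, n = 6 and 5; change 4.22; exact permutation p = 0.00433, adjusted p = 0.0173). In saline rats it was 0.83 ± 0.29 and -2.62 ± 0.71 (SD, n = 6 and 5; change 3.44; exact permutation p = 0.00433, adjusted p = 0.0173). That p of 0.00433 is the smallest that 6 against 5 arrays can give. The ratio of Hspa1l to Hspa8 signal was thus 18.6-fold and 10.9-fold higher in round spermatids than in pachytene spermatocytes of cyclophosphamide and of saline rats. On slides 1 and 2 alone the changes were 3.76 and 3.05.

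The HSP110 pair went the other way. The Hspa4l minus Hsph1 difference was 4.9996 ± 0.35 in round spermatids and 6.73 ± 0.06 in pachytene spermatocytes of cyclophosphamide rats (SD, n = 6 and 5; change -1.73; exact permutation adjusted p = 0.0173). In saline rats it was 5.06 ± 0.29 and 6.35 ± 0.29 (SD, n = 6 and 5; change -1.29; exact permutation adjusted p = 0.0173). The groups did not overlap, so the log2 signal of Hspa4l was lower in round spermatids by more than that of Hsph1. The Hsph1 probe was dim, at -4.75 to -3.36, and the part of background in its smaller difference was not tested. With normexp background correction Hsph1 differed by -0.61 in cyclophosphamide rats and -0.57 in saline rats. The pair changes were then -1.98 and -1.34. On slides 1 and 2 alone the changes were -1.68 and -1.34. The pair result holds for Hsph1 as the counterpart. The HSP110 genes Hspa4 and Hyou1 were not paired with Hspa4l. In saline rats their log2 differences between cell types were -2.05 and -1.84, against -2.14 for Hspa4l. In cyclophosphamide rats they were -2.19 and -2.27, against -2.63.

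The other pairs did not pass. The Hspa2 minus Hspa8 difference changed by 0.10 in cyclophosphamide rats and 0.20 in saline rats between round and pachytene cells (exact permutation adjusted p = 0.577 and 0.473). The Hsp90aa1 minus Hsp90ab1 difference changed by -0.44 and -0.41 (exact permutation adjusted p = 0.0693 and 0.139). For this HSP90 pair the change without cyclophosphamide pachytene rat 15 was -0.53 (adjusted p = 0.0305), and it was -0.39 in saline rats with the mean of all probes (adjusted p = 0.0277), so its call depended on 1 array or on the choice of probe. On slides 1 and 2 alone the changes were smaller, -0.25 and -0.34. Between cyclophosphamide and saline none of the 8 pair differences passed. The lowest p among them was that of Hspa4l minus Hsph1 in pachytene spermatocytes, with 6.73 ± 0.06 after cyclophosphamide and 6.35 ± 0.29 after saline (SD, n = 5 each; exact permutation p = 0.0317, adjusted p = 0.0847). With normexp background correction this difference was 0.53 and passed (exact permutation adjusted p = 0.0254).

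**Figure D4:**
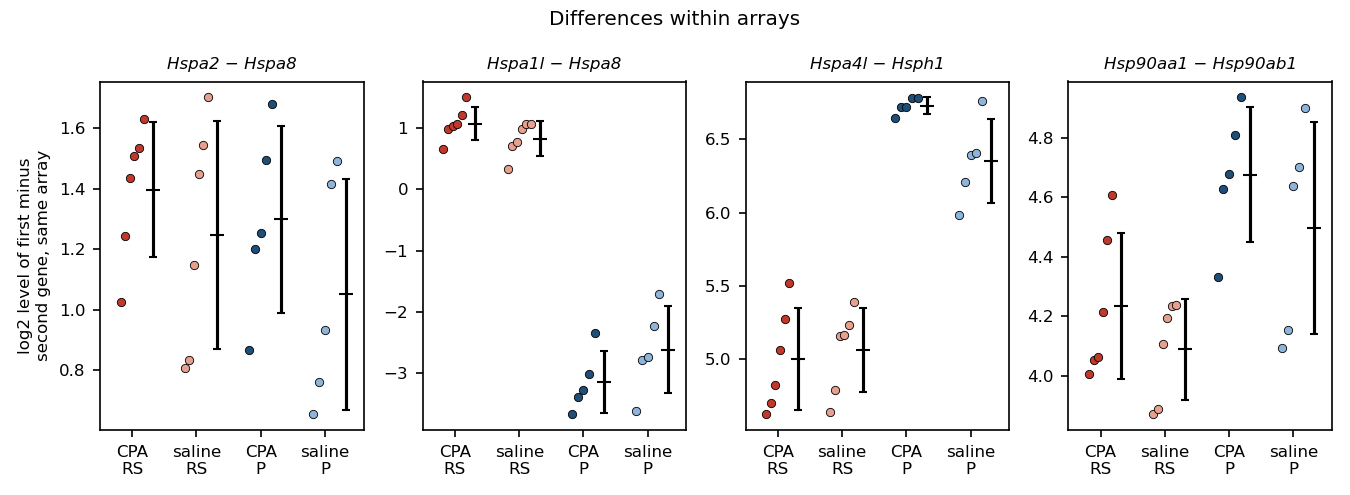
Log2 level of Hspa2, Hspa1l, Hspa4l or Hsp90aa1 minus that of a general counterpart on the same array, for 4 pairs and 4 groups. Points are arrays sorted by value, bars are mean and SD, and the zero of each panel has no meaning across probes (CPA is cyclophosphamide, RS round spermatids and P pachytene spermatocytes). Hspa1l minus Hspa8 and Hspa4l minus Hsph1 separate the cell types in opposite directions, with cell type means 4.22 and -1.73 apart in cyclophosphamide rats.

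The second comparison asked what chronic cyclophosphamide did to the members. No member passed in either cell type. In round spermatids 0% of 21036 tested probes passed with limma, and 702 had an unadjusted p under 0.05, none of them a member's brightest probe. The members' log2 differences, cyclophosphamide minus saline, were -0.23 to 0.03 there over the 8 tested genes, each with an adjusted p of 0.9996. Their 95% intervals bound the change: that of Hspa2 was -0.34 to 0.19, that of Hspa8 -0.52 to 0.07 and that of Hsp90aa1 -0.23 to 0.23. Hspd1 had the lowest bound, with -0.59 to 0.14, and Hspa1l the highest, with -0.45 to 0.50. That of Hspa4l was -0.46 to 0.11.

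In pachytene spermatocytes 0% of 20700 tested probes passed with limma, and 1452 had an unadjusted p under 0.05. Among these was the brightest probe of Hspa1l. That of Hspa12a entered this contrast only through the cyclophosphamide group, so no p is read from it. Hspa1l was at a mean level of 1.01 ± 0.48 after cyclophosphamide and 1.58 ± 0.66 after saline (SD, n = 5 each), a log2 difference of -0.57 ± 0.25 (limma adjusted p = 0.705). The 10 round spermatid markers were all below 0 in the same contrast, with a median of -0.45, and the median over all tested probes was 0.04. Their summed signal was 145.5 to 303.9 after cyclophosphamide and 156.3 to 396.2 after saline, and its part in the Hspa1l value was not tested. Hspa12a was at -5.62, -4.98, -5.14, -5.26 and -5.28 after cyclophosphamide and -6.58, -6.01, -6.46, -5.41 and -5.35 after saline. Its groups overlapped, with a log2 difference of 0.71 that was -0.03 to 1.60 over the alternatives and 0.28 with normexp background correction, for a probe above background on 4 of 5 and 2 of 5 of these arrays. The remaining members lay between -0.07 and 0.31, and the highest was Hspa4l (0.31 ± 0.15; limma adjusted p = 0.705). The limma intervals, not adjusted for the number of probes, were -1.09 to -0.05 for Hspa1l, which left out 0, and -0.005 to 0.62 for Hspa4l. They were -0.08 to 0.49 for Hspa2, -0.36 to 0.28 for Hspa8 and -0.08 to 0.41 for Hsp90aa1. The other probes of Hsp90aa1 gave -0.06 to 0.48 and -0.009 to 0.45.

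The drug contrasts of the cell types were also set against each other. The difference of drug effects, round spermatids minus pachytene spermatocytes, passed for 0% of 22029 tested probes with limma, with 1688 at an unadjusted p under 0.05. Hspa4l had the lowest p of the members, at -0.49 ± 0.20 (limma adjusted p = 0.635). Hspa1l was at 0.60 ± 0.34 (adjusted p = 0.657) and Hspa12a, near the floor, at -0.59. The other 6 members lay between -0.28 and -0.05.

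The wider families put the members in context. Their lists were drawn up from general knowledge of chaperones and are described by counts. Over all tested probes, 38.0% were higher and 37.6% lower in round spermatids of saline rats. In cyclophosphamide rats 38.6% were higher and 40.9% lower. Of the 11 HSP70 genes listed, 8 had a probe, and of 7 tested in saline rats only Hspa1l was higher and only Hspa8 lower in round spermatids. Hspa5, the HSP70 of the endoplasmic reticulum, was at -0.08 (limma adjusted p = 0.639) and Hspa9, that of mitochondria, at 0.11 (adjusted p = 0.392). Hspa1a, Hspa1b and Hspa12b had no matched probe. In cyclophosphamide rats 1 of 8 was higher and 3 were lower. All 4 HSP110 genes were lower in both treatments: besides Hspa4l and Hsph1, Hspa4 fell by 2.05 and the endoplasmic reticulum form Hyou1 by 1.84 on the log2 scale in saline rats. Of the 4 HSP90 genes 3 were lower in both treatments, with Hsp90b1 of the endoplasmic reticulum at -1.13 (adjusted p = 4.34e-07) and the mitochondrial Trap1 at 0.16 (adjusted p = 0.266). Hspe1, the lid of the HSP60 chamber, was higher by 0.69 (adjusted p = 3.51e-04) although Hspd1, which forms the chamber, did not pass in saline rats. The median log2 difference was -0.08 over the HSP70 list, -1.94 over HSP110 and -0.80 over HSP90, against 0.00 over all tested probes.

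**Figure D5:**
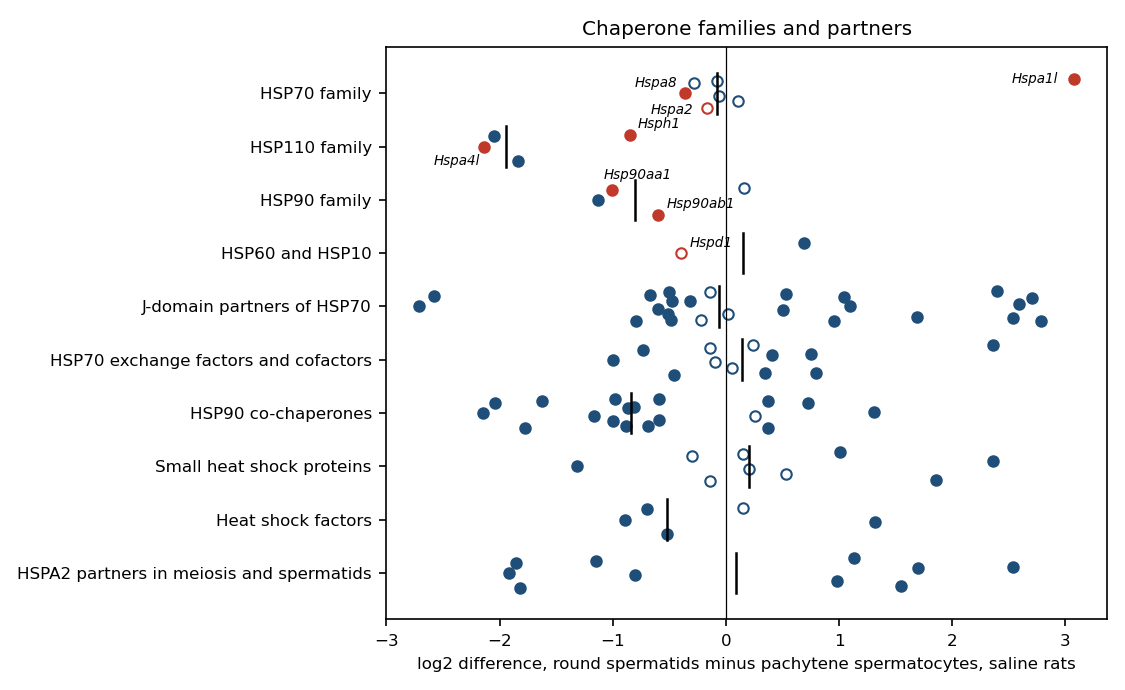
Log2 difference between round spermatids and pachytene spermatocytes of saline rats for the tested genes of 10 lists. These are chaperone families, their partners and heat shock factors. Each point is a gene by its brightest probe, filled where the adjusted p was under 0.05, red for the members, and the black bar is the list's median. All 4 HSP110 genes and 13 of 18 HSP90 co-chaperones lie filled below 0, and the J-domain partners spread from -2.71 to 2.79.

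The J-domain proteins, which bring substrates to HSP70, were called in both directions. Of 24 tested in saline rats 11 were higher in round spermatids and 10 lower, shares near the 38.0% and 37.6% over all tested probes, and in cyclophosphamide rats 11 and 11. The largest rises were Dnajb7 (log2 difference 2.79 ± 0.23), Dnajb8 (2.71 ± 0.22) and Dnajc5b (2.59 ± 0.19), and the largest falls were the endoplasmic reticulum partners Dnajb9 (-2.71 ± 0.10) and Dnajc3 (-2.58 ± 0.12), then Dnajc9 (-0.80 ± 0.13), all past an adjusted p of 0.05 with limma. Dnaja1, a general cytosolic partner, was at -0.31 (adjusted p = 0.0146), and Dnajb1 had no matched probe. Of 12 exchange factors and cofactors of HSP70, 5 were higher and 3 lower in saline rats, and 4 and 3 in cyclophosphamide rats, which are likewise not far from the shares over all probes. Bag3, which links HSP70 to selective autophagy, rose by 2.37 ± 0.19, followed by Bag5 (0.80 ± 0.13) and Bag1 (0.75 ± 0.10). Grpel1, the exchange factor of mitochondria, was at -0.99 ± 0.11, the ubiquitin ligase Stub1 at -0.73 ± 0.12 and St13 at -0.46 ± 0.14.

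HSP90 co-chaperones were mostly lower in round spermatids, 13 of 18 in both treatments (40.9% of all tested probes in cyclophosphamide rats and 37.6% in saline rats), with 5 higher in cyclophosphamide rats and 4 in saline rats. The largest falls in saline rats were the phosphatase Ppp5c (-2.15 ± 0.15), Nudc (-2.04 ± 0.15) and Rpap3 (-1.78 ± 0.10). Cdc37, which delivers kinases to HSP90, was at -0.88 (limma adjusted p = 2.97e-07), the ATPase activator Ahsa1 at -0.99 (adjusted p = 1.22e-08) and p23, encoded by Ptges3, at -0.59 (adjusted p = 3.29e-04). Stip1, which joins HSP70 to HSP90, was at 0.26 and did not pass (adjusted p = 0.085). The largest rises were Tsc1 (1.31 ± 0.14), Cdc37l1 (0.72 ± 0.11) and Sugt1 (0.37 ± 0.10). The list's median was -0.84 in saline rats and -0.95 in cyclophosphamide rats, against 0.00 and -0.04 over all tested probes. None of these families had a gene that passed between cyclophosphamide and saline.

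Small heat shock proteins and the list of heat shock factors were mixed. Over all tested probes, 38.0% were higher and 37.6% lower in round spermatids of saline rats. Of 9 small heat shock proteins 3 were higher in round spermatids of saline rats, Odf1 of the sperm tail's outer dense fibres (2.37 ± 0.22), Cryab (1.85 ± 0.22) and Hspb1 (1.01 ± 0.28), and 1 was lower, Hspb6 (-1.32 ± 0.15). The list of heat shock factors also held Hsf2bp and Hsbp1, which encode proteins that bind such factors, and 5 of its genes were tested. Hsf2 was higher by 1.32 ± 0.11. Hsf1, the main factor of the heat response, was lower at -0.70 ± 0.10, as were Hsf2bp (-0.89 ± 0.13) and Hsf4 (-0.52 ± 0.13). All these values passed with limma. Among 10 genes whose proteins work with HSPA2 in meiosis or in chromatin condensation, 5 rose and 5 fell, while Hspa2 itself was at -0.17. The largest rises were the protamines Prm2 (2.54 ± 0.27) and Prm1 (1.55 ± 0.26) and the cyclin Ccnb1 (1.70 ± 0.15). The largest falls were Shcbp1l (-1.92 ± 0.14) and the synaptonemal complex genes Sycp2 (-1.86 ± 0.12) and Sycp3 (-1.82 ± 0.14). Several of these genes are also among the cell type markers used above.

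Finally, the genes whose levels followed each member most closely were ranked among 11216 annotated genes by Pearson's r over 22 arrays, after each group's mean was removed. Differences in cell mixture between arrays of a group, such as those in the spermatid marker sums of pachytene arrays, were not removed. These r are descriptions over arrays that share slides and fractions. The genes most like Hspa1l were Cabs1 (r = 0.978), Dnajb8 (0.970) and Spata18 (0.970), which also ranked highest without removing group means (0.9985 each). For Hspa4l they were Nfrkb, Psph and Ikzf5 (0.929 to 0.924), and for Hspa2 they were Cyth2, Hagh and Spcs1 (0.944 to 0.919). For Hspd1 they were Cnih1, Gga2 and Eif2s3 (0.948 to 0.935), and the first and second for Hsp90aa1 were Aars1 and Samm50 (0.898 each). Hsp90ab1 was followed by Eif3a, Cse1l and Scaf8 (0.869 to 0.856), Hspa8 by Chmp4c, Tmem88 and Naa60 (0.848 to 0.842), and Hsph1 less closely by Qpct, Mamdc4 and Fam229a (0.776 to 0.670). The members did not vary as a block within groups. Of 28 pairs among 8 members 12 had a positive r, with a median of -0.06, from -0.57 for Hspa1l and Hspa4l to 0.75 for Hspa2 and Hsp90aa1.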

How the data were processed

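Agilent 1-colour arrays were read from the deposited scanner files, whose intensity per spot had been background-subtracted but not scaled between arrays, per the file headers. The submitters' processing notes name Agilent Feature Extraction 11.5.1.1, while the headers name 10.7.3.1. The authors' deposited value table holds log2 values centred within each cell type and served only as an alternative for the drug contrasts.

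Control and outlier spots were left out (62976 spots per array, 58717 not controls), spots of 1 probe were averaged, and the log2 signal was set against each array's 75th percentile. The GRCr8 gene table of RefSeq named 17998 of 30367 probes (59.3%). A probe entered a test when more than 0.5 of its spots exceeded background throughout a group of the contrast, 1 array excepted. limma 3.58.1 with statmod 1.5.0 in R 4.3.3 fitted group means to all 22 arrays, with Benjamini-Hochberg adjustment over all tested probes at 0.05, and ± is its standard error unless SD is written. Exact permutation tests ran in Python 3.11.15 (pandas 2.3.3, numpy 2.4.6), and drawings used matplotlib 3.10.9. The scripts were tested on simulated data. The 5 or 6 arrays per group limit the precision, and cross-hybridisation between related genes was not tested.

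The members, lists and tests were chosen with earlier results of these data known. Named were all members, a fixed set of partners, and from each list the up to 3 largest rises and falls that passed between cell types of saline rats. Alternatives were other scalings, background correction, filters, probe choice, slides, replicate numbers, single groups and leaving out each array. Slides 1 and 2 held both cell types and slides 3 and 4 held pachytene arrays alone.

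Whether a rat number that occurs in both cell types is the same animal is not stated in the labels. Over the 6 such pairs, deviations from group means correlated at -0.08 to 0.37, above 0.1 in 3 pairs, so the arrays were not paired.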

Additional observations from a re-analysis of the deposited data

How the results depend on the processing

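Over 1153 values of single members under alternatives, 1127 stayed on their side of the threshold, 15 no longer passed, 11 newly passed and 0 reversed among called values. All changes were between cell types. In saline rats 174 of 192 such values stayed, 11 no longer passed and 7 newly passed. In cyclophosphamide rats 207 of 215 stayed and 4 no longer passed, and the 4 that newly passed were of Hspa12a, from which no call is read. The drug contrasts and their difference, with 233, 208 and 305 values, had no called member to lose and gained none. Of the 1127, 50 changed sign, all of them uncalled values of the drug contrasts. The calls on Hspa1l, Hspa4l, Hsp90aa1 and Hsph1 between cell types held under every alternative run. Those that ended were on Hspa8, Hsp90ab1, Hspa2 and Hspd1. In saline rats Hspa8 was lost with normexp on median signals (-0.29), with slide as a fixed block (-0.31) and with only the groups compared (adjusted p = 0.0536 with limma). The Hspa8 call held with slide as a random block (-0.35). The normexp setting was chosen after seeing the data. The column planned for normexp was not in the files, so the planned setting was not run. In saline rats Hspa2 was gained with quantile normalization (-0.26). Hspd1 was gained with median scaling (-0.43) and with slide as a fixed block (-0.55) or a random block (-0.42). The causes were not tested.

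Within slide 1 alone, with 1 pachytene array per treatment assumed to vary like the other groups, 3 members were lower in saline rats. Within single slides the probes passing with cyclophosphamide in pachytene spermatocytes numbered 1 (slide 1) and 16 (slide 3), in round spermatids 2 (slide 1) and 4 (slide 2), and for the difference of drug effects 4 (slide 1) and 2 (slide 2). For that difference they numbered 0 to 1 when each array was left out. On slides 1 and 2 alone the Hspa1l minus Hspa8 change in cyclophosphamide rats was 3.76, against 4.22. The Hsp90aa1 minus Hsp90ab1 change in cyclophosphamide rats was -0.53 to -0.38 when each array was left out and -0.25 on slides 1 and 2 alone, against -0.44, and it was -0.39 in saline rats with the mean of all probes.

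With the rat number as a replicate block, 16475 probes passed between cell types in saline rats, against 16453 without it, and no member's call changed. Of 11 arrays with a same-number partner, 4 correlated best with it.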
